A study of Mus musculus with 34 samples.

Results

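This report describes how the RNA of the stromal vascular fraction (SVF), taken from the epididymal fat pad, differed between mice kept on the control diet (CHOW) for 8 weeks and for 20 weeks. The comparison uses 9 of the 34 RNA-seq libraries of the study, which are the 4 CHOW libraries of 8 weeks and the 5 CHOW libraries of 20 weeks, taken by their labels, and all genes on a log2(TPM + 1) scale. TPM is a level per transcript length, scaled to the same sum in each library, and fold changes are of TPM + 1, which understates the change of low genes. All mice were male C57BL/6J that began their diet at 6 weeks of age, so the CHOW mice were 14 and 26 weeks old when their fat was collected. No allele or drug was used. The study also fed a high fat diet (HFD, product D12492) for the same times, and 6 HFD libraries of 8 weeks and 6 of 20 weeks are used here for comparison, together with levels in 7 CHOW libraries of 34 weeks. CHOW was either of a pair of control diets, D12450B or D12450K, and the labels do not say which group ate which. Mice were fasted before collection. Nothing in the labels pairs mice across the groups. The p-values of single genes rest on the spread within groups over all 21 libraries of 8 and 20 weeks, HFD included. The labels describe separate sequencing experiments for the times, so age, weeks on the diet, day of collection and sequencing experiment cannot be told apart.

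The SVF is what remains of fat once its adipocytes have been floated off after collagenase digestion. It holds macrophages and lymphocytes, fibroblasts and adipocyte progenitors, endothelial cells and mesothelial cells from the surface of the fat pad. Many of the genes below belong to a pair of linked pathways. In the first, sensors of foreign or misplaced nucleic acid lead to the production of interferon beta, which acts through its receptor on the same and neighbouring cells and turns on a set of interferon-stimulated genes. In the second, the transcription factor NF-kB, held in the cytoplasm by inhibitor proteins until a cell receives an inflammatory signal, turns on cytokines, chemokines, adhesion molecules and its own inhibitors.

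The markers of the fraction were present in all 9 libraries. Ptprc, carried by all leukocytes, was at 123 to 185 TPM at 8 weeks and 86.7 to 165 TPM at 20 weeks, and the progenitor marker Pdgfra was at 84.6 to 107 and 81.8 to 132 TPM. The adipocyte hormone Adipoq was still found, at 73.5 to 168 TPM at 8 weeks and 44.3 to 102 TPM at 20 weeks. Between 14230 and 15201 genes reached 1 TPM in a library. Libraries of one time correlated with each other at r = 0.927 to 0.971 (8 weeks) and 0.947 to 0.969 (20 weeks), and libraries of different times at 0.915 to 0.958, across the tested genes, which are not independent replicates. One library stood apart at each time. The 8 week replicate 3 had the lowest Pecam1, an endothelial marker, at 55.2 TPM against 185 to 238 in the other 3, and the highest Il1b at 4010 TPM against 183 to 196. Its germ cell genes summed to 716 TPM, against 35 to 238 in the others of 8 weeks and 29.2 to 358 at 20 weeks. Its seminal vesicle and epididymal genes summed to 885 TPM, against 1.19 to 279 and 64.8 to 322. Such RNA of the reproductive tract was thus present in the CHOW libraries too. The 20 week replicate 2 had Il1b at 2400 TPM against 453 to 860 in the other 4. Counts are given below with and without these libraries.

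Of 16808 genes tested, 103 passed an adjusted p of 0.05 between the times, which is 0.613%. An unadjusted p under 0.05 in the limma fit, counted for some lists below, was reached by 2104 of the 16808. Higher levels at 20 weeks were called for 77 genes (0.458% of those tested) and lower levels for 26 (0.155%), and 76 of the 103 differed by more than 1 on the log2 scale. All 20 week libraries lay above all 8 week libraries for 72 of the 77, and below them for 25 of the 26. Over all tested genes such separation was seen in 2.61% and 3.66%. The genes were called on these same libraries, so their separation is a description and not further support. By log2 fold change the genes that rose most were Ifnb1, which encodes interferon beta, the immunoglobulin genes Ighv4-1, Ighg2b and Ighv1-34, the interferon-stimulated gene Oasl1 and the GTPase gene Rnd1. Chemokines, cytokines and a group of abundant non-coding RNAs were also among the called genes. The genes that fell included those of leptin and gamma-synuclein. The background moved slightly the other way, since the median log2 fold change of all tested genes was -0.09 and 37.2% of them were above 0.

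The number of calls depended on single libraries. Leaving out 8 week replicate 1, 2, 3 or 4 left 36, 40, 185 or 24 calls, in that order. Leaving out 20 week replicate 2, 3, 4 or 5 left 183, 36, 26 or 29. Without both libraries that stood apart it was 185, and 78 of the 103 were among them. With the CHOW libraries alone, and so without the spread of the HFD groups, 68 genes were called, and 46 of the 103 were among them. In the 9 fits that each left out 1 CHOW library, 20 of the 103 genes passed every time, and all 20 were higher at 20 weeks. Each gene called lower was lost in at least 3 of these 9 fits. Removing the hemoglobin genes and rescaling gave 127 calls, of which 63.8% were higher, against 74.8% in the main fit.

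Ifnb1 encodes interferon beta and had the largest log2 fold change of the named genes. It lies on chromosome 4 (GRCm38 chr4:88522025-88522774). Its level was 2.52, 7.99, 0.885 and 1.68 TPM in the 4 libraries of 8 weeks and 54.1, 58.8, 181, 201 and 356 TPM in the 5 libraries of 20 weeks. The lowest 20 week library was thus several times above the highest 8 week library. The log2 fold change was 5.24 ± 0.70 (SE), with a limma adjusted p of 0.00146. The call held with each library left out (highest adjusted p 0.0136). Of the 19 other type I and type III interferon genes in the table, 14 were at 0 in all 9 CHOW libraries, none passed the filter on low values, and the highest value was 0.823 TPM, so interferon beta was the one interferon of this class that was measured at a clear level. The receptor genes Ifnar1 and Ifnar2 did not pass the test, with log2 fold changes of -0.25 ± 0.23 and 0.17 ± 0.15 (SE).

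The stretches of DNA just before the start of 7 genes that rose are shown because letters recognised by NF-kB or by interferon regulatory factors (IRFs) recur in them. Each is the 250 bases before the start of the gene from RefSeq on GRCm38.p6, written 5′ to 3′ on the strand of the gene, and capitals mark matches on either strand to the NF-kB pattern, which is GGGA, any 2 bases and TTCC, or to the IRF pattern, which is GAAA, any 2 bases and GAAA. Matches can overlap, as in Isg15 and Cxcl1.
Ifnb1, chr4:88522795-88523044, minus strand: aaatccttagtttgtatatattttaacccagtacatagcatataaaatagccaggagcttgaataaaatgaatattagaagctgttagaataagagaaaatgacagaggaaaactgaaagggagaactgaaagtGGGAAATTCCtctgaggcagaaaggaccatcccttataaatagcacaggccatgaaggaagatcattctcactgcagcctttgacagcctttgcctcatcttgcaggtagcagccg
Cxcl10, chr5:92348890-92349139, minus strand: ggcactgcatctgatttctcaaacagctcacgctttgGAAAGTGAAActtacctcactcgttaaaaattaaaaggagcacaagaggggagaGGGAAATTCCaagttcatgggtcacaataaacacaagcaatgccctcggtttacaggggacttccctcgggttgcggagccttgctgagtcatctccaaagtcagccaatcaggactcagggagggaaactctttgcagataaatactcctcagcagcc
Nfkbia, chr12:55492648-55492897, minus strand: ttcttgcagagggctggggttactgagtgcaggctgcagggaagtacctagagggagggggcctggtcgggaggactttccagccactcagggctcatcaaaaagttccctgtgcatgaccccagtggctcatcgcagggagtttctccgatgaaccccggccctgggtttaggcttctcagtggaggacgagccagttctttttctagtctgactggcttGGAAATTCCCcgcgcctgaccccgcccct
Il6, chr5:30012864-30013113, plus strand: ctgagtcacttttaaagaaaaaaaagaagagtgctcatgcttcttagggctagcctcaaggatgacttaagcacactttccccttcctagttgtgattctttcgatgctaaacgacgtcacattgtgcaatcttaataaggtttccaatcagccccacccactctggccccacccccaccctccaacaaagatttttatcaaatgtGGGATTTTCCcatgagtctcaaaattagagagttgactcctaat
Cxcl1, chr5:90890995-90891244, plus strand: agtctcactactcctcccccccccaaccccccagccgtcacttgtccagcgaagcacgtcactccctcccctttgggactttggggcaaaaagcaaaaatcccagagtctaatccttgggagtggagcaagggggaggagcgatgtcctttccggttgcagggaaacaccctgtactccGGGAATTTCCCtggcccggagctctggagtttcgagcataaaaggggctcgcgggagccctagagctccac
Isg15, chr4:156200819-156201068, minus strand: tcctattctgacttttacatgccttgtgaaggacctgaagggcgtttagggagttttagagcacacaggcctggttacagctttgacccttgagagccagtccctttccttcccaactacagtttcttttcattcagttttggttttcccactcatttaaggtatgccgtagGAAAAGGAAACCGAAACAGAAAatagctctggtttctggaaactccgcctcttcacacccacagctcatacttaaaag
Ifit1, chr19:34640639-34640888, plus strand: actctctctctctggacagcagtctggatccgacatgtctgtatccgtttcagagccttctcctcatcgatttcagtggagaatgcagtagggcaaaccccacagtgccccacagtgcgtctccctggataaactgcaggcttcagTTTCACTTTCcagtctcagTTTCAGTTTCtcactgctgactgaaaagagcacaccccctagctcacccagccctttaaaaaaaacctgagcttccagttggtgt
The NF-kB pattern lies 116 bases before the start of Ifnb1, 159 before Cxcl10, 29 before Nfkbia, 44 before Il6 and 71 before Cxcl1. The IRF pattern lies 213 bases before the start of Cxcl10, in 3 overlapping copies from 78 bases before Isg15, and 104 and 85 bases before Ifit1. A window was given for 50 of the 77 genes called higher. The NF-kB pattern was in 7 of these 50, namely Csf1, Cxcl1, Cxcl10, Gbp5, Ifnb1, Il6 and Nfkbia. It was in 1.19% of the 12033 tested genes with a window. The IRF pattern was also in 7 of 50, in Cxcl10, Gbp5, Ifi205, Ifi211, Ifit1, Isg15 and Rsad2, against 2.68% of tested genes. Cxcl10 and Gbp5 held both. The letters TATAAA were in 10.0% of the windows of genes called higher and in 7.39% of all tested. None of the 17 windows of genes called lower held any of these patterns, but so few windows cannot show a difference from the shares over all tested genes. A match describes the letters of the window and does not show that a factor was bound.

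Among the sensors and signalling proteins of the interferon pathway, Ifih1, the cytoplasmic sensor of double-stranded RNA also known as MDA5, was the one called gene of 24 tested. Its level was 17.3, 17.6, 7.1 and 12.8 TPM at 8 weeks and 57.2, 58.1, 106, 149 and 103 TPM at 20 weeks. No 8 week library came near a 20 week library, and the log2 fold change was 2.68 ± 0.40 (SE, adjusted p = 0.00269). The interferon regulatory factors Irf3 and Irf7 did not pass, at log2 fold changes of 0.07 ± 0.18 and 0.67 ± 0.20 (SE). In this list 18 of 24 genes were above 0 and the median was 0.18.

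Of 42 interferon-stimulated genes tested, 7 were called higher and none lower, 40 had a log2 fold change above 0, and the median of the list was 0.63. Over all tested genes 0.458% were called higher and 37.2% were above 0. For 12 of the 42 all 20 week libraries lay above all 8 week libraries, against 2.61% of all tested genes. Oasl1, an interferon-induced protein related to the 2′-5′ oligoadenylate synthetases, was at 26.2, 29.4, 16.5 and 12.8 TPM at 8 weeks and at 165, 179, 260, 387 and 433 TPM at 20 weeks. This was a log2 fold change of 3.65 ± 0.50 (SE), with an adjusted p of 0.00146. Isg15, a ubiquitin-like protein that is attached to other proteins in response to interferon, was at 104, 99.4, 65.3 and 91.2 TPM and then at 216, 207, 331, 345 and 310 TPM. No 8 week library reached a 20 week library, and the log2 fold change was 1.62 ± 0.28. Ifit1, which binds viral RNA, was at 16.5, 15.6, 6.54 and 15.2 TPM and then at 43.3, 39.4, 105, 135 and 140 TPM. Rsad2, the antiviral enzyme viperin, was at 23.4, 23.2, 8.64 and 24.1 TPM and then at 43.5, 42.5, 129, 185 and 168 TPM. For both genes the first 2 libraries of 20 weeks were the lowest of their group, as they were for Ifnb1. Ifit1 had a log2 fold change of 2.57 ± 0.48 and Rsad2 of 2.30 ± 0.43 (SE), both with an adjusted p of 0.0141. Cxcl10, Ifi205 and Parp14 made up the 7, and Ifi205 and Parp14 were lost in 2 and 7 of 9 fits that each left out 1 library. The number called was 3 without 20 week replicate 4, 4 without replicate 5 and 12 without replicate 2, and the call of Oasl1 and Isg15 held with each library left out while Ifit1 and Rsad2 were each lost in 2 of 9 such fits (highest adjusted p 0.0535 for both).

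Other called genes of this kind were chosen after their values were seen. Trim30c was at 0.333 to 4.41 TPM at 8 weeks and 5.91 to 22.6 TPM at 20 weeks, a log2 fold change of 2.44 ± 0.39 (SE), with an adjusted p of 0.00446. Its neighbours of the same family, Trim30a and Trim30b, which may share reads with it, had log2 fold changes of 0.22 ± 0.19 and 0.47 ± 0.30. Gbp5, a guanylate-binding protein of the inflammasome response, had a log2 fold change of 1.87 ± 0.33, and Trex1, an exonuclease that degrades cytoplasmic DNA, of 1.51 ± 0.21 (SE). Trex1 was at 76.4 to 113 TPM at 8 weeks and at 222 to 270 TPM at 20 weeks. Gm13822 lies on the strand opposite to Oasl1 and overlaps it, and it rose by a log2 fold change of 2.61 ± 0.60 (SE), with an adjusted p of 0.0462, a call lost in 7 of 9 fits with a library left out. The libraries were stranded, but no source used here says whether counting took the strand into account.

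Chemokines, the secreted proteins that draw leukocytes into tissue, were called often. Of 34 chemokine and receptor genes tested, 9 were called higher and none lower, against 0.458% of all genes. All 9 were ligands. The summed level of the list was 5570 to 12600 TPM at 8 weeks and 19300 to 25400 TPM at 20 weeks. Ccl2, which attracts monocytes, was at 1030, 823, 801 and 589 TPM at 8 weeks and 3150, 2960, 5180, 5190 and 4390 TPM at 20 weeks. The log2 fold change was 2.35 ± 0.33 (SE, adjusted p = 0.00146). Cxcl1, which attracts neutrophils, was at 733, 767, 2360 and 666 TPM and then at 3420, 4610, 6520, 5840 and 6760 TPM. Replicate 3 of 8 weeks was well above the others of its group but below every 20 week library, and the log2 fold change was 2.44 ± 0.38. Cxcl1 ranked between 10 and 30 among all genes in the 5 libraries of 20 weeks, and between 46 and 201 in the 4 libraries of 8 weeks.

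Cxcl10, an attractant for activated T cells that both interferon and NF-kB induce, had tight values at 8 weeks of 85.2, 81.9, 79.7 and 88.5 TPM and reached 402, 352, 688, 621 and 560 TPM at 20 weeks. This was a log2 fold change of 2.59 ± 0.43 (SE), with an adjusted p of 0.00714. Its neighbours Cxcl9 and Cxcl11, which bind the same receptor, had log2 fold changes of 0.21 ± 0.40 and 0.83 ± 0.27 and did not pass. Ccl4 was at 276, 377, 350 and 65.8 TPM and then at 1410, 1440, 1930, 2360 and 2450 TPM (log2 fold change 3.07 ± 0.56), and the adjacent Ccl3 had a log2 fold change of 1.91 ± 0.33. Ccl7 rose by 1.75 ± 0.26, Ccl5 by 1.61 ± 0.29, Ccl22 by 1.72 ± 0.39 and Cxcl16 by 1.32 ± 0.29 on the log2 scale (SE). Ccl2, Ccl3, Ccl7, Cxcl1 and Cxcl10 passed with each library left out. Ccl5 was lost in 3, Cxcl16 in 6 and Ccl22 in 7 of 9 such fits (highest adjusted p 0.0828, 0.173 and 0.145). Ccl4 was lost without 8 week replicate 4 (adjusted p = 0.072), a fit in which the list had 5 called genes.

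Of 22 inflammatory cytokines and mediators tested, 5 were called higher, against 0.458% of all genes. Of the 22, 19 were above 0 and the median log2 fold change was 1.15. Il6 was at 155, 91.7, 492 and 78.9 TPM at 8 weeks and at 650, 603, 1200, 1140 and 1200 TPM at 20 weeks, at a log2 fold change of 2.57 ± 0.56 (SE), with an adjusted p of 0.0405. Its 8 week replicate 3 approached the 20 week range. Il12b, a subunit of interleukin 12 and interleukin 23, was at 1.21, 1.57, 3.22 and 7.39 TPM and then at 8.69, 10.2, 14.3, 15.8 and 13.1 TPM. Csf1, the growth factor of macrophages, was at 145 to 166 TPM at 8 weeks and 266 to 652 TPM at 20 weeks. Tnf was also higher in every 20 week library (822 to 1900 against 299 to 599 TPM) but did not pass, at a log2 fold change of 1.46 ± 0.44 (SE), with an adjusted p of 0.134. Il1b did not separate the times, since it was at 4010 TPM in 8 week replicate 3. The number called in this list by limma, of which 15 had an unadjusted p under 0.05 in the full fit, was 0 without 8 week replicate 1 or 2 or without 20 week replicate 4, 1 without 8 week replicate 4 or 20 week replicate 3 or 5, and 11 without 8 week replicate 3.

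Some called genes encode inhibitors or subunits of NF-kB, and no list of them was counted. Nfkbia, which encodes the inhibitor IkB alpha, was at 531, 570, 1000 and 568 TPM at 8 weeks and at 1380, 1740, 1620, 1530 and 1520 TPM at 20 weeks, a log2 fold change of 1.27 ± 0.26 (SE), with an adjusted p of 0.0253. Tnfaip3, the ubiquitin-editing protein A20, was at 181, 178, 508 and 185 TPM and then at 613, 805, 745, 790 and 657 TPM, a rise of 1.61 ± 0.30 on the log2 scale (SE, adjusted p = 0.0141). For both genes 8 week replicate 3 was the highest of its group and still below every 20 week library. Tnip1, a partner of A20, rose by 1.47 ± 0.34 and Rela, a subunit of NF-kB, by 0.99 ± 0.21 on the log2 scale (SE), and the subunit gene Relb at 0.53 ± 0.22 did not pass. Zfp36 and Zc3h12a, which encode proteins that speed the decay of cytokine messenger RNAs, rose by 0.92 ± 0.21 and 1.01 ± 0.23. Zfp36 was the one called gene among 27 immediate early and heat shock genes, whose median was -0.19. The immediate early gene Fos was at 577 to 676 TPM at 8 weeks and 411 to 613 TPM at 20 weeks. The calls of Nfkbia and Rela were lost in 6 of the 9 fits with 1 library left out that of Tnfaip3 in 4 and those of Tnip1, Zfp36 and Zc3h12a in 7, with adjusted p up to 0.211.

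**Figure D1:**
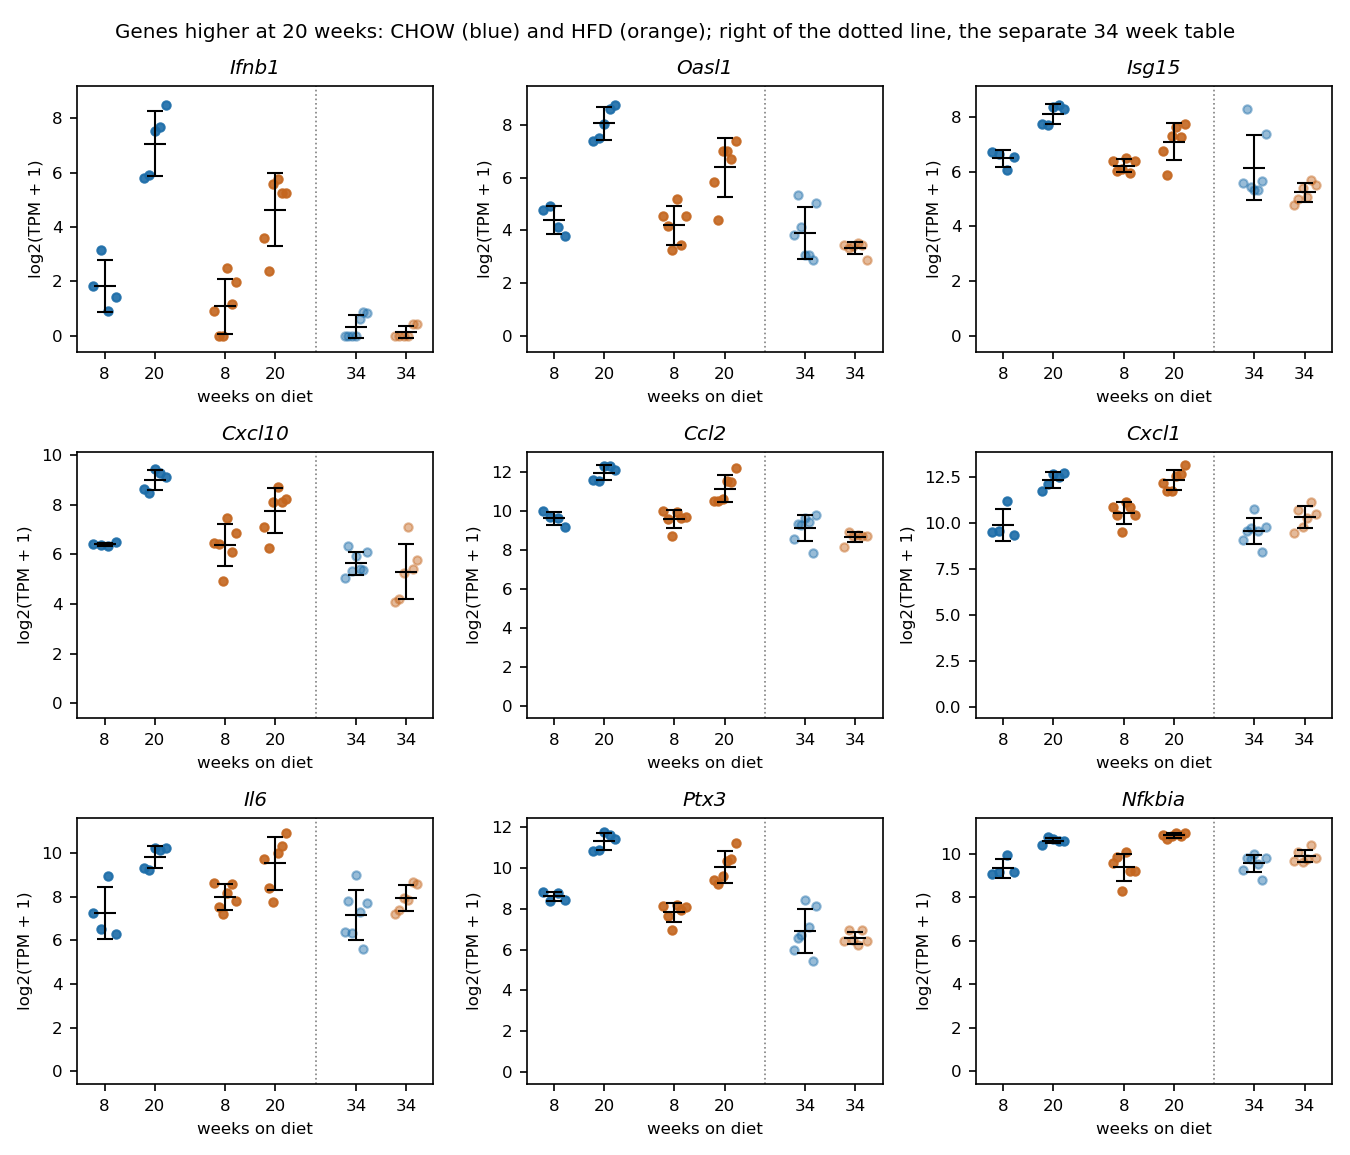
Levels of 9 genes that rose, as log2(TPM + 1) (y axis) against weeks on the diet (x axis), for CHOW (blue) and HFD (orange); points are libraries and bars are the mean ± SD, and the libraries of 34 weeks, right of the dotted line, come from a separately normalized table. In every panel the 5 CHOW libraries of 20 weeks lie above the 4 of 8 weeks.

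Other genes called higher encode proteins of several kinds. Ptx3, a soluble pattern recognition protein of the pentraxin family, was at 456, 340, 441 and 349 TPM at 8 weeks and at 1810, 1920, 3480, 3160 and 2790 TPM at 20 weeks. The rise was 2.69 ± 0.34 on the log2 scale (SE, adjusted p = 0.00135). The adhesion molecules Icam1 and Vcam1, which hold leukocytes to the vessel wall, went from 308 to 418 and 40.1 to 48.8 TPM at 8 weeks to 723 to 1230 and 87.9 to 204 TPM at 20 weeks. Saa3, an acute-phase protein, overlapped between the times, at 224 to 5280 and 312 to 3100 TPM, and did not pass (log2 fold change 0.87 ± 0.79, SE). Rnd1, a small GTPase that loosens the actin skeleton, was at 51.1, 48.8, 23.5 and 21.5 TPM and then at 187, 158, 647, 579 and 516 TPM, a log2 fold change of 3.37 ± 0.53 (SE), with an adjusted p of 0.00404. Cd40, a costimulatory receptor of antigen-presenting cells, rose by 1.72 ± 0.30, Stat5a, a transcription factor of cytokine receptors, by 1.53 ± 0.25, and the protease inhibitor gene Serpina3f by 1.58 ± 0.20 on the log2 scale. Ptx3, Rnd1, Cd40, Stat5a and Serpina3f passed with each library left out, while Icam1 was lost in 4 and Vcam1 in 2 of 9 such fits (highest adjusted p 0.072 and 0.0693).

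The metallothioneins, small proteins that bind zinc and copper, were called as well. Mt2 was at 1880, 2430, 1710 and 1590 TPM at 8 weeks and 4400, 5320, 6040, 4880 and 5870 TPM at 20 weeks (log2 fold change 1.49 ± 0.21, SE, adjusted p = 0.00174). Mt1 was at 1490 to 2080 and 2590 to 3590 TPM (0.87 ± 0.18). Slc30a1, the zinc exporter of the plasma membrane, went the other way, from 20.8, 20.9, 26.3 and 39.1 TPM to 12.3, 10.6, 13.6, 11.5 and 9.32 TPM, a log2 fold change of -1.12 ± 0.26 (SE), with an adjusted p of 0.0469. Mt1, Mt2 and Cebpd were the called genes among 16 genes that respond to glucocorticoid, and in that list Tsc22d3 and Fkbp5, at -0.70 ± 0.27 and 0.59 ± 0.25, did not pass. Mt2 passed with each library left out, Mt1 was lost in 4 of 9 such fits, Cebpd in 7 and Slc30a1 in all 9 (highest adjusted p 0.126, 0.137 and 0.224).

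Immunoglobulin RNA, which marks plasma cells and B cells, was higher at 20 weeks. It made up 0.46% ± 0.0564 of all TPM at 8 weeks (SD, n = 4) and 1.95% ± 1.39 at 20 weeks (SD, n = 5). No library of one time overlapped the other, with 0.51, 0.478, 0.472 and 0.379% against 0.872, 0.831, 1.71, 4.24 and 2.12%. An exact two-sided permutation test gave p = 0.0159, the smallest that 4 against 5 libraries allow, and 0.0265 after adjustment over 5 measures of a library. In bulk RNA, a change in the number of cells of a type and a change in RNA per cell cannot be told apart, here or below. Of 177 V segment genes tested, 154 were above 0, the median log2 fold change was 1.22, and 5 were called higher. For 14 of the 177 all 20 week libraries lay above all 8 week libraries. Over all tested genes 0.458% were called higher and 2.61% were separated in this way. Of 24 plasma cell and constant region genes tested, 22 were above 0, the median was 1.02 and Ighg2b and Iglc1 were called, calls that were lost in 5 and 6 of 9 fits with a library left out (highest adjusted p 0.179 and 0.0973).

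The single immunoglobulin genes varied much between libraries. Ighv4-1 was at 1.22, 0, 0 and 1.01 TPM at 8 weeks and 2.54, 138, 115, 287 and 23.1 TPM at 20 weeks. For Ighv1-34 every 8 week value was 0, and the gene was at 7.58, 2.31, 91.6, 4.93 and 20.6 TPM at 20 weeks. Igkv1-110 was at 25.9 to 44.6 TPM at 8 weeks and at 114 to 223 TPM in 4 libraries of 20 weeks, with 857 TPM in replicate 4. Ighg2b was at 0, 1.28, 60.1 and 0.142 TPM and then at 53.8, 98.7, 128, 280 and 22.4 TPM, so that its 8 week replicate 3 overlapped the 20 week range. The more abundant Ighm, the heavy chain of IgM, was at 824, 700, 697 and 628 TPM and then at 1290, 1070, 2620, 5880 and 3310 TPM without passing the test (log2 fold change 1.72 ± 0.57, SE, adjusted p = 0.185). Genes of the B cell itself did not move together, since 12 of 20 were above 0 and the median was 0.02. V segments are alike in sequence, and how reads were divided among them is uncertain. The number of V segments called was 0 without 8 week replicate 2 or 4 or 20 week replicate 5, 1 without 8 week replicate 1 or 20 week replicate 3 or 4, and 12 without 20 week replicate 1.

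A group of 6 non-coding genes, singled out after their values were seen, was called higher with nearly the same change: Gm20186, Gm12840, Gm20400, Slmapos2, Gm42503 and Gm26809, at log2 fold changes of 1.31 to 1.57. Gm20186 was among the most abundant RNAs of the libraries, at 2070, 2820, 3170 and 1090 TPM at 8 weeks and 4660, 4730, 7290, 6170 and 8420 TPM at 20 weeks. It ranked 5 to 20 among all genes in the libraries of 20 weeks and 27 to 116 in those of 8 weeks. Gm12840 followed it in every library at a lower level. Slmapos2 was at 348, 415, 579 and 224 TPM and then at 856, 858, 1290, 1160 and 1470 TPM (log2 fold change 1.57 ± 0.26, SE, adjusted p = 0.00791). Their log2 values correlated across the 21 libraries of 8 and 20 weeks at r of at least 0.949 for any pair, and at least 0.981 for the 5 genes other than Gm26809, as a description of libraries that share composition.

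Of this group, 3 share sequence. The annotated transcript of Gm12840 (GRCm38 chr4:117700188-117700923) matched one of Gm20186 (chr6:18845910-18848207) at 97.5% identity over 628 aligned bases, and Gm26809 lies on the strand opposite to Gm20186 and overlaps it, with 100% identity over 600 bases. The stretch shared near the 5′ ends of Gm12840 and Gm20186 is shown for that reason, read from the GENCODE transcripts, with the one base at which they differ in capitals.
Gm12840, bases 1 to 119: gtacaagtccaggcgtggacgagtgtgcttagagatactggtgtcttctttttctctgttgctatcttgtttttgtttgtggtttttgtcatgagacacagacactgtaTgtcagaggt
Gm20186, bases 24 to 142: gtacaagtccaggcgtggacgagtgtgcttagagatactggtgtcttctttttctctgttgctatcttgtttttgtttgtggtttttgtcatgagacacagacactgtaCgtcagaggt
Reads from these 119 bases that do not cover the differing base match both genes, and the likeness reaches beyond this stretch. The division of reads between Gm12840 and Gm20186 is therefore uncertain. For Gm20186 and Gm26809 it also depends on whether counting took the strand into account. No match to the others was found for Gm20400, and Slmapos2 and Gm42503 had only shorter matches, of 90.4% identity over 135 bases and 93.9% over 49 bases. Slmapos2 passed with each library left out, and the other 5 were lost in 6 of 9 such fits, with adjusted p up to 0.198.

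**Figure D2:**
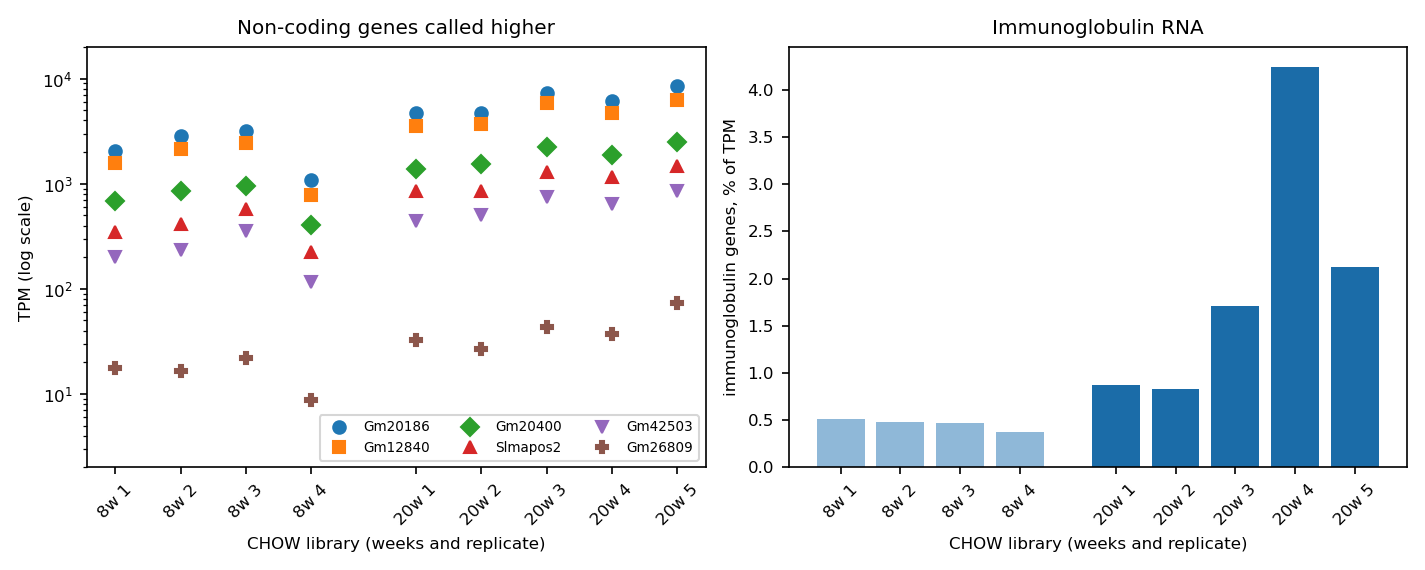
Left, TPM on a log axis of 6 non-coding genes in each CHOW library (weeks and replicate on the x axis); right, immunoglobulin genes as percent of all TPM in the same libraries. The non-coding genes keep their order in each library, and 20 week replicate 4 has the most immunoglobulin RNA at 4.24%.

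Of the genes that fell, Lep, the adipocyte hormone leptin, came next after Gm21961, given below, by log2 fold change. The level of Lep was 12.5, 20.2, 5.25 and 27.3 TPM at 8 weeks and 2.51, 3.61, 2.33, 2.46 and 0.204 TPM at 20 weeks, a log2 fold change of -2.35 ± 0.54 (SE), with an adjusted p of 0.0463. Sncg, gamma-synuclein, which adipocytes and neurons express, was at 103, 152, 66.3 and 188 TPM and then at 47.3, 46.4, 51.2, 42.6 and 26.8 TPM (-1.47 ± 0.27, adjusted p = 0.0141). In both genes 8 week replicate 3 was the lowest of its group. It was also the 8 week library with the lowest summed level of the 30 adipocyte genes, 4890 TPM against 12700 to 14700 TPM in the other 3, and the 20 week libraries were at 6560 to 9490 TPM. Of 29 adipocyte genes tested, Lep alone was called, 28 were below 0 and the median log2 fold change was -0.90. Their part in the lower level of Lep and Sncg was not tested. Adipoq and Plin1, defining markers of the adipocyte, had log2 fold changes of -0.87 ± 0.32 and -0.69 ± 0.29 (SE) and did not pass. The call of Lep was lost in 7 of 9 fits with a library left out and that of Sncg in 3 (highest adjusted p 0.211 and 0.0828).

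Of 26 genes of lipogenesis and cholesterol synthesis, limma called none, 2 had an unadjusted p under 0.05, 11 were above 0 and the median log2 fold change was -0.09. Single metabolic genes outside that list were called. Agpat2, an enzyme of triglyceride synthesis, was at 22.4, 37, 29.8 and 33.6 TPM at 8 weeks and 17.6, 16.6, 14.3, 14.6 and 14.4 TPM at 20 weeks (-0.93 ± 0.21). Nrg4, a signal secreted by fat, was at 3.66 to 6.71 and then at 0.761 to 2.66 TPM (-1.18 ± 0.27). Gstz1, an enzyme of tyrosine breakdown, was at 54.5, 65.9, 31.3 and 78 TPM and then at 25.5, 20.9, 24.3, 23 and 25.5 TPM (-1.16 ± 0.22, adjusted p = 0.0167). Pxmp2, a peroxisomal membrane channel, fell by 1.12 on the log2 scale (SE 0.24). Agpat2, Nrg4 and Pxmp2 were lost in 7, 8 and 7 of the 9 fits with a library left out, and Gstz1 in 4 (adjusted p up to 0.187). Among the CHOW libraries of 34 weeks, replicate 6 had the most Adipoq, at 5440 TPM. It also had the most Agpat2, Nrg4, Gstz1 and Pxmp2, at 800, 51.4, 873 and 123 TPM. The part of adipocyte RNA in the lower level of these genes at 20 weeks was not tested.

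Hexim1, which holds back the elongation of transcription by RNA polymerase II, was at 198, 194, 129 and 234 TPM at 8 weeks and 118, 111, 91.2, 74.8 and 75.5 TPM at 20 weeks (-0.99 ± 0.20, adjusted p = 0.0223). Hr, a nuclear receptor corepressor, was at 8.42, 12.1, 5.67 and 11.9 TPM and then at 4.19, 2.98, 3.62, 3.48 and 2.37 TPM (-1.25 ± 0.24, adjusted p = 0.0167). Lyl1, a transcription factor of blood cells and vessels, was at 22.1 to 34.6 and then at 7.92 to 20.9 TPM. Ccdc130, Fbxl8, Pramef8, Eepd1 and Zkscan5 had log2 fold changes between -1.26 and -0.87, and these calls were lost in 6, 7, 5, 6 and 9 of 9 fits with a library left out. Hr and Eepd1 were also highest in the 34 week CHOW library with the most Adipoq, at 27.3 and 251 TPM. Hexim1 and Lyl1, at 57.5 and 13.7 TPM there, were not. Gm21961, singled out after its values were seen, was at 37.6, 25.8, 37.6 and 34.4 TPM in the libraries of 8 weeks and listed at 0 in all 5 of 20 weeks. It was also listed at 0 in 5 of 6 HFD libraries of 8 weeks and 4 of 6 of 20 weeks, so 0 was common in this gene. Hexim1, Hr, Lyl1 and Gm21961 were lost in 6, 4, 6 and 6 of the 9 fits with a library left out (adjusted p up to 0.198).

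Transcripts encoded by the mitochondrial genome took a smaller share of the RNA at 20 weeks. They made up 8.02% ± 1.53 of TPM at 8 weeks (SD, n = 4) and 5.32% ± 0.638 at 20 weeks (SD, n = 5), without overlap, and an exact permutation test gave p = 0.0159 and 0.0265 after adjustment over the 5 measures. None of the 13 genes was called by limma (1 had an unadjusted p under 0.05), all 13 were below 0, and the median log2 fold change was -0.58. The nuclear genes of the respiratory chain had a median of -0.22, with 40 of 41 below 0, none called and 5 at an unadjusted p under 0.05. Hemoglobin genes took 7.41% ± 2.61 (SD, n = 4) and 6.18% ± 4.06 (SD, n = 5), which did not pass the exact permutation test (p = 0.635).

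**Figure D3:**
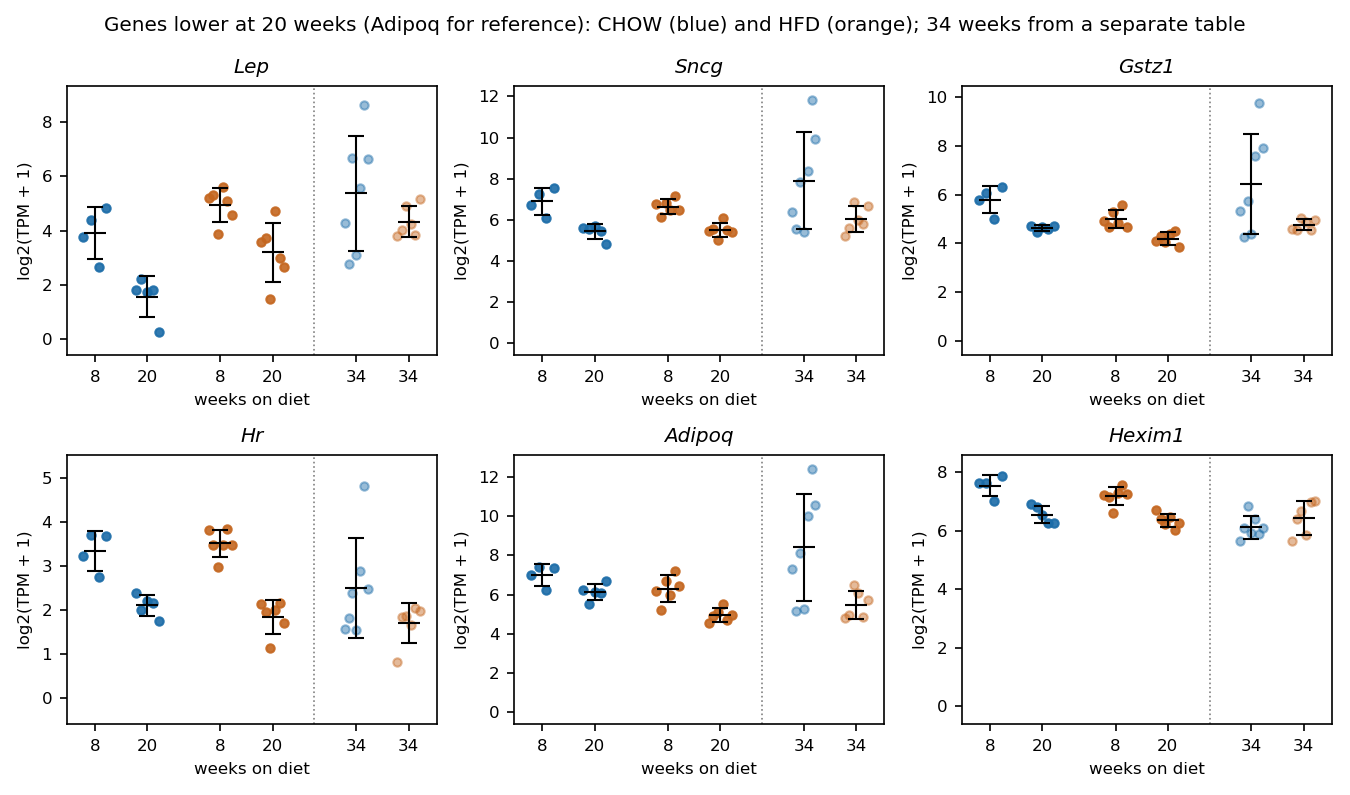
Levels of 5 genes that fell and of Adipoq, which was not called, as log2(TPM + 1) against weeks on the diet for CHOW (blue) and HFD (orange); points are libraries, bars the mean ± SD, and 34 weeks comes from a separate table. The CHOW libraries of 34 weeks spread widely, with Adipoq between 35.3 and 5440 TPM.

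Most cell type lists held no called gene. This was so for 20 macrophage genes (median -0.06), 20 genes of lipid-associated macrophages (0.04), 20 of resident perivascular macrophages (-0.04), 25 T cell genes (0.20), 24 endothelial genes (-0.02) and 27 collagen chains (-0.08). In the limma fit 2, 0, 3, 1, 1 and 1 of them, in that order, had an unadjusted p under 0.05. The medians of the macrophage and perivascular lists, the endothelial list and the collagens were above 0 with median-ratio scaling, and no direction is given for them. Adgre1, the macrophage marker F4/80, was at 115 to 253 TPM at 8 weeks and 101 to 237 TPM at 20 weeks. None of 18 genes of a matrix and remodeling panel was called by limma (5 had an unadjusted p under 0.05), and the panel had 9 genes above and 9 below 0. Its member Col1a1 was at 144 to 429 and 91.6 to 243 TPM, and Itga5, an integrin subunit, was higher in every 20 week library (319 to 457 against 180 to 224 TPM) at a log2 fold change of 0.99 ± 0.31 (SE), with an adjusted p of 0.145. In the progenitor and fibroblast list of 28, Icam1 was the one called gene.

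Other lists leaned to one side without many calls. All 20 mesothelial genes were above 0, with a median of 0.76 and none called by limma (2 had an unadjusted p under 0.05), and Upk3b, a membrane protein of the mesothelium, was at 80.7, 41.1, 45.9 and 42.2 TPM at 8 weeks and 90.9, 32.8, 168, 153 and 136 TPM at 20 weeks. The 16 regulatory T cell genes had 14 above 0 and a median of 0.82. None was called by limma and 9 had an unadjusted p under 0.05, against 2104 of 16808 over all tested genes. Foxp3, the defining transcription factor of regulatory T cells, was at 0.647, 0.985, 0.964 and 0.968 TPM and then at 2.86, 2, 4.8, 4.35 and 3.45 TPM. The groups did not overlap, but the gene is at a low level and missed the threshold (log2 fold change 1.21 ± 0.29, SE, adjusted p = 0.057). The 21 circadian clock genes did not lean, with 9 above 0 against 37.2% of all tested genes. None was called by limma (5 had an unadjusted p under 0.05). Their median was -0.18, or -0.09 with median-ratio scaling. Dbp was at 14.3 to 44.2 TPM at 8 weeks and 5.03 to 31.4 TPM at 20 weeks. Of 18 complement genes, C1ra was called at 0.75 ± 0.17 (SE) and 13 were above 0. C1ra was lost in 6 of 9 fits with a library left out (highest adjusted p 0.19).

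**Figure D4:**
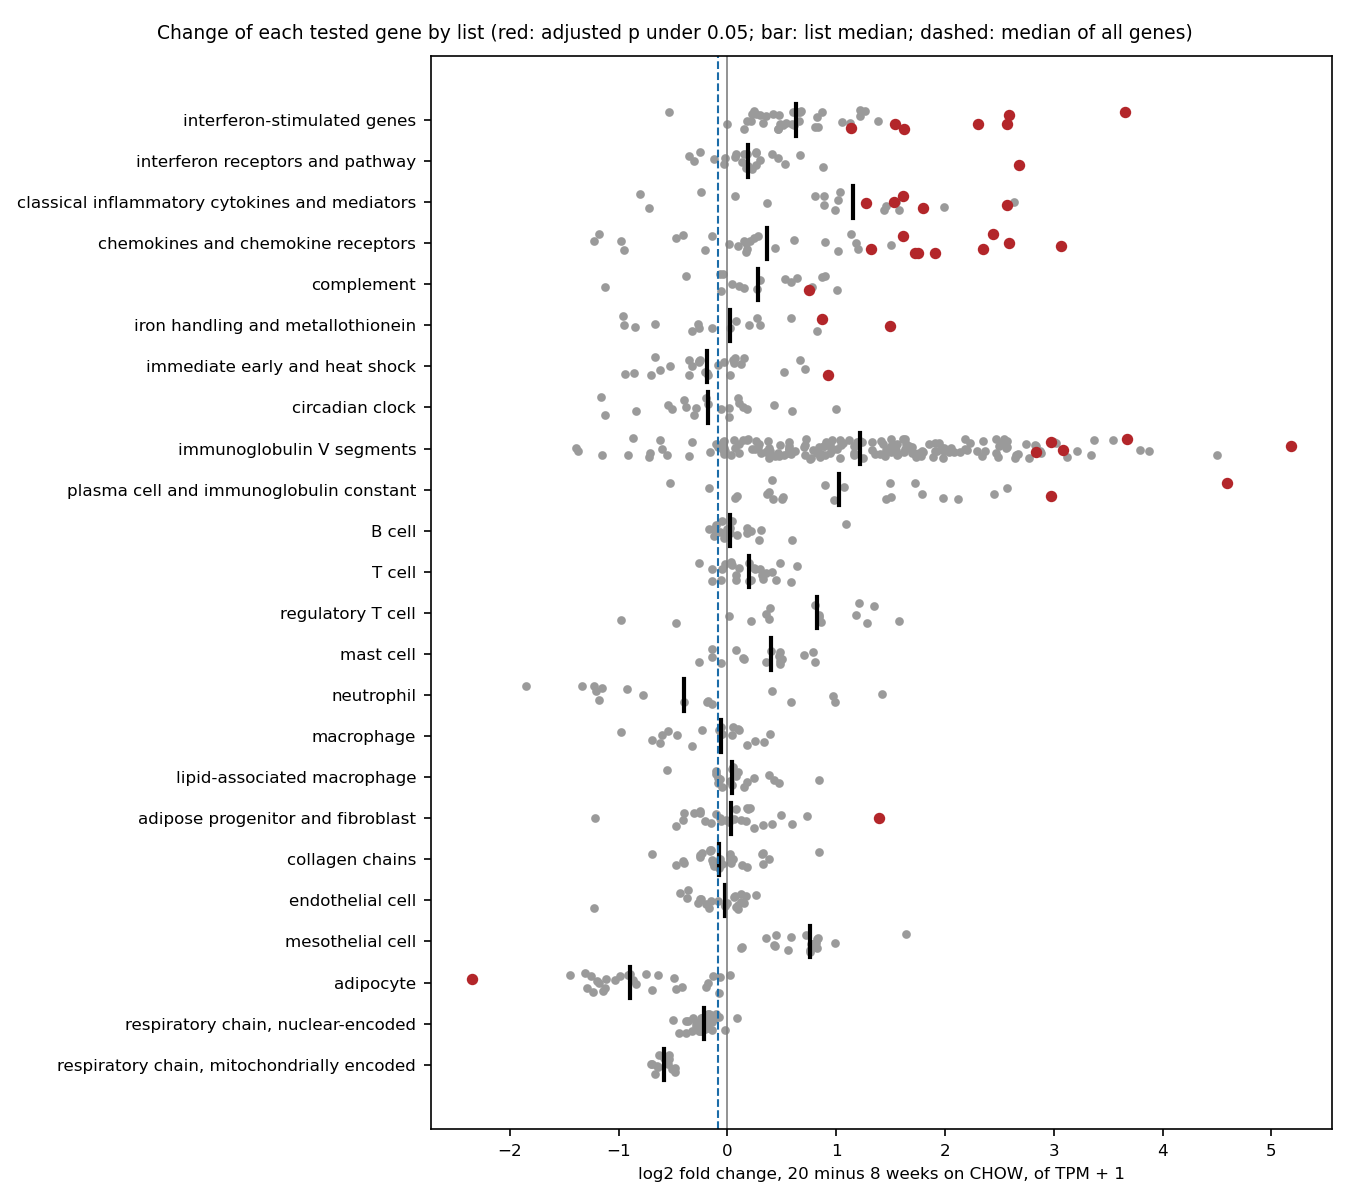
Log2 fold change from 8 to 20 weeks on CHOW (x axis) of each tested gene in 24 lists (y axis); red points passed an adjusted p of 0.05, black bars are list medians and the dashed line is the median of all 16808 genes at -0.09. Most red points sit in the interferon-stimulated, cytokine, chemokine and immunoglobulin lists, and the medians of the adipocyte and mitochondrial lists lie left of 0.

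The change on HFD over the same weeks shares no library with the change on CHOW and is set beside it here. Both changes come from the same fit with a shared spread. On both diets time and sequencing experiment cannot be told apart, so the changes are not independent of that. On HFD 8.78% of genes were called, 6.12% higher and 2.65% lower. The median log2 fold change of all tested genes on HFD was 0.09 and 60.3% of them were above 0. HFD 8 week replicate 3 held the seminal vesicle gene Svs2 at 12700 TPM, and HFD 20 week replicate 5 the germ cell gene Prm1 at 3100 TPM. Without both, a choice made after seeing the data, 622 genes were called higher and 557 lower on HFD, against 1029 and 446. The HFD counts here and below are from the fit that keeps both. Of the 77 genes called higher on CHOW, 60 were also called higher on HFD and 76 were above 0 there, and of the 26 called lower 11 were also called lower and 23 were below 0. The median log2 fold change of the 77 was 1.54 on CHOW and 1.19 on HFD, and 56 of them had the larger value on CHOW, the diet on which they were chosen. Ifnb1 rose on HFD from 0 to 4.64 TPM in the 6 libraries of 8 weeks to 4.21 to 53.8 TPM in the 6 of 20 weeks, a log2 fold change of 3.55 ± 0.61 (SE), with an adjusted p of 0.000801. Its change differed from that on CHOW by -1.68 ± 0.93 (SE, adjusted p = 0.407), which did not pass. Ccl2, Cxcl1 and Ptx3 rose by 1.55 ± 0.28, 1.80 ± 0.32 and 2.24 ± 0.29 on HFD.

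The difference between the diets in the change was called for 0.297% of all genes and for 1 of the 103, Igkv4-68. It rose on CHOW from 0 to 7.96 TPM at 8 weeks to 7.6 to 141 TPM at 20 weeks, and fell on HFD by 1.94 on the log2 scale (SE 0.57). The interferon-stimulated genes had a median of -0.08 on HFD, with 6 called higher and 3 lower, against 0.63 on CHOW. Over all tested genes the medians were 0.09 on HFD and -0.09 on CHOW. Rsad2 and Trim30c, at 0.50 ± 0.37 and 0.43 ± 0.33 (SE), did not pass on HFD, and the differences from CHOW did not pass either (adjusted p = 0.218 and 0.109). Among lists without a called gene on CHOW, 14 of 17 mast cell genes and 14 of 20 genes of lipid-associated macrophages were called higher on HFD. The share over all genes was 6.12%. The mast cell protease genes Cpa3 and Tpsb2 differed between the diets by 2.70 ± 0.52 and 2.62 ± 0.42 on the log2 scale (SE, adjusted p = 0.0263 and 0.0108). Foxp3 differed by -1.93 ± 0.38 (SE, adjusted p = 0.0308), with a log2 fold change of -0.72 ± 0.25 on HFD.

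**Figure D5:**
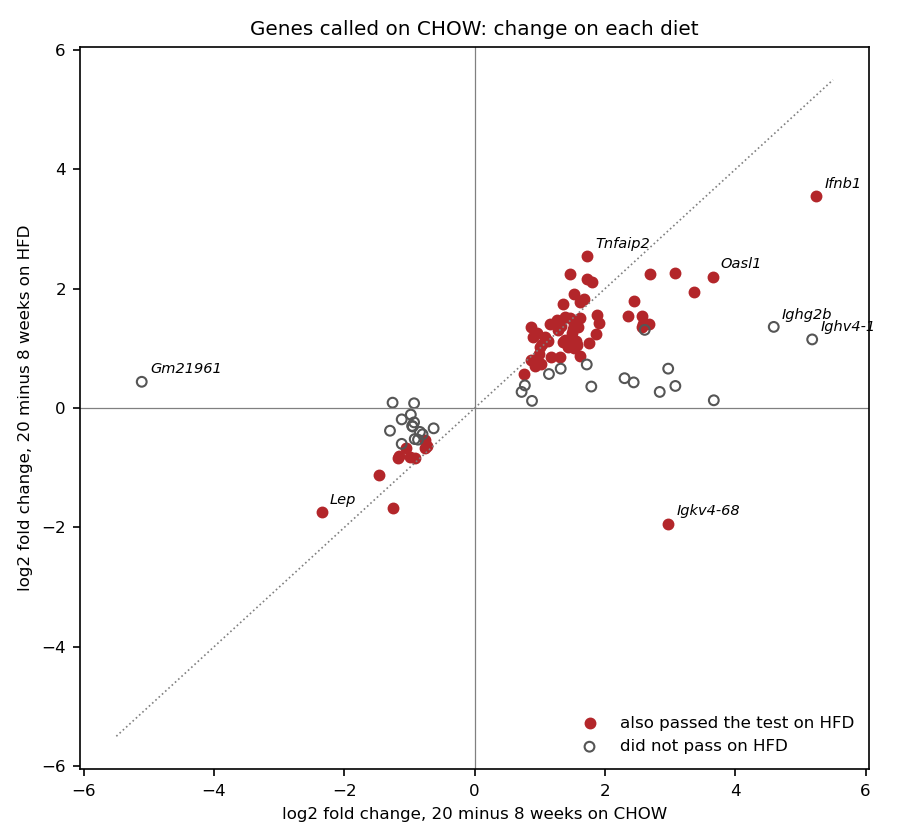
Log2 fold change from 8 to 20 weeks on CHOW (x axis) and on HFD (y axis) of the 103 genes called on CHOW; filled points also passed on HFD, and the dotted line marks equal change. Most genes lie in the upper right, and Igkv4-68 is the one gene called in opposite directions; the fitted value of Gm21961 rests on libraries at 0.

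Levels after 34 weeks on CHOW come from a table that was normalized separately, so no test was made, and the genes differed in where they lay. Ifnb1 was listed at 0 in 4 of the 7 libraries and reached at most 0.818 TPM. Cxcl10 was at 32.5 to 79.3 TPM, Ccl2 at 235 to 888 TPM, Ptx3 at 42.1 to 343 TPM and Oasl1 at 6.33 to 39.7 TPM, all with their highest 34 week library below the lowest CHOW library of 20 weeks. Cxcl1 was at 344 to 1740 TPM and Nfkbia at 450 to 1010 TPM, also below every 20 week library. Isg15 was at 39.4 to 311 TPM, which reached into the 20 week range of 207 to 345 TPM. The metallothionein gene Mt2 was at 944 to 4720 TPM and also overlapped. Of the immunoglobulin genes, Ighv4-1 was at 1.84 to 34.6 TPM and Igkv1-110 at 47.6 to 251 TPM, all above the 8 week values, and Ighv1-34 was at 0 to 2.17 TPM, all below the 20 week values.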

How the data were processed

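Visceral fat SVF RNA was sequenced after poly(A) selection with a stranded kit. The authors trimmed reads with Trimmomatic, estimated transcript levels with Salmon against GENCODE M10 and summed them to genes, with no version named in the sources. The deposited values are TPM, in one table for 8 and 20 weeks (32098 genes) and another, normalized separately, for 34 weeks. TPM keeps no depth, so sequencing depth is unknown and no counting interval is given. The 21 libraries of 8 and 20 weeks were grouped by their labels and fitted together in limma 3.58.1 (R 4.3.3), with 1 mean per group and a trend in the prior variance, on log2(TPM + 1) of genes with at least 1 TPM in at least 4 libraries. Calls are at a Benjamini-Hochberg adjusted p under 0.05 over all 16808 genes. Library shares were compared by exact two-sided permutation tests in scipy 1.17.1. The fit was tested on simulated data. Symbols matched 31791 gene identifiers. Up to 15 called genes in each direction were named by size of fold change, without overlap and with a mean of 5 TPM in either group, with up to 4 called members of each of 47 gene lists. Members and lists were chosen with earlier results of these data known. Transcripts were aligned with blastn 2.17.0. Alternatives were other pseudocounts, filters, scalings and weights, a replicate block and leaving out libraries.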

Additional observations from a re-analysis of the deposited data

Results flagged for a closer look

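In 67 sets of 4 or 5 library values, 6 had a library far from the rest of its group by Dixon's criterion at 95%, where chance gives about 1 in 20. Ighv1-34 was at 91.6 TPM in 20 week replicate 3. Igkv1-110 was at 44.6 TPM in 8 week replicate 3 and at 857 TPM in 20 week replicate 4. In 8 week replicate 3, Ifit1 was low at 6.54 TPM, Cxcl1 was high at 2360 TPM and hemoglobin genes took 3.52% of TPM.

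For 6 named genes the change from 8 to 20 weeks differed between HFD and CHOW in the limma fit. The differences, as the HFD change minus the CHOW change on the log2 scale, were -4.91 for Igkv4-68, -1.93 for Foxp3, -1.96 for Lyve1, a hyaluronan receptor of resident macrophages and lymphatic vessels, and -3.03 for Retnla, a secreted protein of alternatively activated macrophages. They were 2.70 for Cpa3 and 2.62 for Tpsb2, both mast cell proteases. The change on CHOW was 0.12 for Lyve1 and -0.46 for Retnla.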

How the results depend on the processing

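The number of genes called on CHOW (103) was 49 with no filter on low values, 155 with a mean of at least 5 TPM, 417 with median-ratio scaling, 301 with quantile normalization, 68 with the CHOW libraries alone and 1659 with array weights, and it ran from 24 to 185 with 1 CHOW library left out. With array weights 40.6% of calls were higher, so most were lower. Chosen after seeing the data, leaving out HFD 8 week replicate 3 and HFD 20 week replicate 5 gave 361 and leaving out CHOW 8 week replicate 3 and CHOW 20 week replicate 2 gave 185. The number for the difference between diets (50) was 32, 33, 85, 102 and 400 with no filter, the 5 TPM mean, median-ratio scaling, quantile normalization and array weights, 103 without the CHOW pair of libraries and 13 to 151 with 1 left out. Called interferon-stimulated genes (7) numbered 11, 15, 11, 4 and 19 with the 5 TPM mean, median-ratio scaling, quantile normalization, CHOW alone and array weights, 12 without the HFD pair and 3 to 12 with 1 left out. Called chemokines (9) numbered 5 to 9 with 1 left out, and 10 without the HFD pair. Called cytokines (5) numbered 1, 8, 2 and 16 with no filter, median-ratio scaling, CHOW alone and array weights, 9 without the CHOW pair and 0 to 11 with 1 left out. Called V segments (5) numbered 2, 1, 9, 9, 0 and 34 with a pseudocount of 5 TPM, no filter, median-ratio scaling, quantile normalization, CHOW alone and array weights, 8 and 3 without the HFD and the CHOW pair, and 0 to 12 with 1 left out. The cause of these differences was not tested. No called gene was called in the opposite direction under any alternative, 188 values of single named genes missed the threshold, and 18 genes, all higher, passed under every alternative.

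Same-numbered libraries did not deviate together (r of -0.09, 0.012, -0.034 and 0.031). This gives no sign that the numbers pair mice, but so few libraries cannot exclude it. With the replicate block 71 genes were called on CHOW, of which 54 were among the 103, 32 for the difference between diets, 2 cytokines, 2 V segments, 7 interferon-stimulated genes and 7 chemokines.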

Other observations

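Other gene lists had few or no calls on CHOW. Sncg was the one called of 7 Schwann cell and neuronal genes, Ccl5 of 20 cytotoxic T and NK cell genes, and Ccl22 and Ifi205 of 25 dendritic cell genes. Mt1 and Mt2 were called of 17 iron and metallothionein genes. None was called by limma among 8 eosinophil genes, of which 7 were above 0 with a median of 0.67 and 3 had an unadjusted p under 0.05, or among 18 genes of type 2 innate lymphoid cells, of which 17 were above 0 with a median of 0.29 and 3 had an unadjusted p under 0.05. The 14 genes of MHC class II presentation had 11 below 0, a median of -0.11 and 2 at an unadjusted p under 0.05 by limma. The 32 mitotic genes had 26 below 0, a median of -0.13 and 2 at an unadjusted p under 0.05. Over all tested genes the median was -0.09. With median-ratio scaling the medians were -0.01 for MHC class II, -0.05 for the mitotic genes and -0.01 for all genes. On HFD 17 of 35 lysosome genes were called higher, against 6.12% of all genes. On CHOW none of the 35 was called by limma and 2 had an unadjusted p under 0.05. Their median on CHOW was -0.10, or -0.01 with median-ratio scaling. The differences between the diets in these lists were not tested.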
